A study of Mus musculus with 4 samples.

Results

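Windows around the nuclear transfer RNA (tRNA) genes of chromosomes 1 to 19 were examined for KAP1 in mouse regulatory T cells. A window was a tRNA gene with 1000 bp added on both sides. The gene table of NCBI RefSeq for GRCm38.p6, which shares its coordinates with mm10, lists 430 genes of type tRNA, of which 408 are nuclear and 391 lie on chromosomes 1 to 19. These 391, among 47042 genes of every type on the same chromosomes, were chosen by annotation alone. The gene class itself was selected on its summit counts in the 2 lists used here, so those counts are a description. KAP1 (the product of Trim28) was mapped by chromatin immunoprecipitation and sequencing in 2 samples, beside 2 input samples made with no antibody. All 4 samples were C57BL/6 spleen regulatory T cells that had been sorted and grown for 2 weeks, and their labels differ in the antibody, anti-KAP1 (Active Motif, 1Tb-A9) or none. Inputs were not analysed here. A list of peak summits was given for each KAP1 sample, with 8862 summits in replicate 1 and 79515 in replicate 2. Read depth is unknown, and it is not stated if the replicates were separate cultures or animals. The lists carry no gene expression, so the cell type could not be checked against its markers.

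KAP1 is a corepressor. It reaches DNA through KRAB zinc finger proteins and there recruits histone H3 lysine 9 methylation. tRNA genes are short and are transcribed by RNA polymerase III from a promoter that lies within the gene. The factor TFIIIC binds 2 internal elements of that promoter, the A box and the B box, and TFIIIB then places the polymerase just upstream of the gene. Mammalian tRNA genes occur in many near-identical copies, singly and in clusters, and short reads from such copies are hard to place. How the authors treated reads with several matches is not given in the sources used here.

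The B box of 4 members that could be read whole is shown first, since it is the internal promoter element that TFIIIC binds. Sequences came from the RefSeq promoter windows of GRCm38.p6, which hold the whole of only these 4 tRNA genes, and the strand was read from the B box. The motif searched was GGTTC, any base, A, any 2 bases and CC, on both strands, and capitals mark it. It occurred in 261 of 32851 RefSeq promoter windows of 300 bp (0.794%), and in 7 of the 10 that overlap a nuclear tRNA gene.
n-TAagc16 (chr13:21222586-21222657, plus strand): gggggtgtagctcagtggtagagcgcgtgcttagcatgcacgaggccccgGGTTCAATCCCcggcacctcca
n-TVcac9 (chr13:23446142-23446214, minus strand): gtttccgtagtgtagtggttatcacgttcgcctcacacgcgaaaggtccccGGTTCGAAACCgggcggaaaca
n-TTagt9 (chr7:35234770-35234843, minus strand): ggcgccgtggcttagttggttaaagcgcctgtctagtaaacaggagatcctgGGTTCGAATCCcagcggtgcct
n-TRtcg5 (chr7:79466419-79466491, plus strand): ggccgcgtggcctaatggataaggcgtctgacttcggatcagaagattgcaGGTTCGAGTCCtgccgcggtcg
None of these 4 windows held a summit of either replicate. A match is a description of the letters and not evidence of factor binding.

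Of the tRNA genes with a shared summit beside them, 3 had that summit inside a RefSeq promoter window of a neighbouring coding gene. These windows are shown because they place the KAP1 summit by a coding gene start, with a tRNA gene within 1000 bp of the summit. Only the Polr3e sequence holds part of its tRNA gene, and the Knl1 and Fmc1 sequences hold none of theirs. Summits of the 2 lists no more than 200 bp apart were paired, and a paired replicate 1 summit is called shared. In the Polr3e window, whose gene encodes a subunit of RNA polymerase III, the first capitals mark the B box of n-TLaag4. The second capitals there, and the capitals in the Fmc1 window, mark the 21 bases centred on the replicate 1 summit. The Knl1 window begins on its summit, so its capitals mark the summit base and the 10 after it.
Polr3e (chr7:120917528-120917827, plus strand): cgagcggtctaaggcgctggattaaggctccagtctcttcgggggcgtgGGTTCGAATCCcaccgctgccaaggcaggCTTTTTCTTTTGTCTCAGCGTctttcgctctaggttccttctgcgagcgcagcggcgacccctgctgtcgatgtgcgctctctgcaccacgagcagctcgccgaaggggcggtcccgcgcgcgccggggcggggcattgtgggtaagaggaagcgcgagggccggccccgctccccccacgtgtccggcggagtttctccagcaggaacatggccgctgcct
Knl1 (chr2:119046869-119047168, plus strand): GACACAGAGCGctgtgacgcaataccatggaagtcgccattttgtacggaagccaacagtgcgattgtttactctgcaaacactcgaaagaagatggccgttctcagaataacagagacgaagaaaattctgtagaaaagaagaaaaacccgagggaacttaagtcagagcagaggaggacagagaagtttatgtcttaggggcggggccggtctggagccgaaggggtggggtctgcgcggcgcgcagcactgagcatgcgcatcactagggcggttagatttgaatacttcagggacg
Fmc1 (chr6:38534611-38534910, plus strand): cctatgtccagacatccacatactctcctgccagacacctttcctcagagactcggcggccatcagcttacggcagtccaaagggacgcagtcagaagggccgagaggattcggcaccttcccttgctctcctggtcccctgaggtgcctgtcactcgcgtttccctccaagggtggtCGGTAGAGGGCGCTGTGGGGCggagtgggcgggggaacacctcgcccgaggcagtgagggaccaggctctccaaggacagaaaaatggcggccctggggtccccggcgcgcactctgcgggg
The Polr3e window holds 71 of the 82 bases of n-TLaag4, a leucine tRNA gene, on the same strand as Polr3e. Its summit at position 120917616 lay 18 bp past the tRNA gene. Its scores had the lowest mean percentile of the 47 loci with a shared summit, 4.17 in replicate 1 and 4.0 in replicate 2. The Knl1 summit lay 38 bp from n-TSgct7, a serine tRNA gene (scores 5.10 and 6.98). The Fmc1 summit lay 796 bp from n-TRcct1, an arginine tRNA gene, and 62 bp from the start of Fmc1 (scores 9.50 and 14.8). Scores are the authors' −log10 values, of a p-value or possibly a q-value, and only rank summits within a list. In pairs of scores in parentheses, replicate 1 comes before replicate 2.

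KAP1 summits lay in tRNA windows at a high rate in both lists. A shared summit was present in 75 of the 391 tRNA windows, or 19.2% (Wilson 95% interval 15.6 to 23.4%). The background among the 2386 other genes no longer than the longest tRNA gene (107 bp) was 1.93%, or 46 windows made the same way. The share was 2.79% of 931 snRNA genes, 2.2% of 1136 miRNA genes and 1.71% of 1286 snoRNA genes. It was 0 of 61 rRNA genes, most of them copies of the 5S gene, which RNA polymerase III also transcribes. Among protein-coding genes, 4.56% of 41330 gene ends and 8.13% of 20085 gene starts had a shared summit within 1000 bp. The members were chosen with earlier results of these data known, so no test was made. Intervals cover counting error only, and neighbouring windows share summits.

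In each list the tRNA windows had a larger share than the other short or small RNA genes and the ends and starts of coding genes. Replicate 1 had a summit in 84 tRNA windows (21.5%), against 2.14% of the other short genes, 3.01% of snRNA genes, 2.64% of miRNA genes, 1.71% of snoRNA genes and 0 of the rRNA genes. The share was 5.04% at coding gene ends and 9.02% at coding gene starts. Replicate 2 had one in 124 tRNA windows (31.7%), against 8.21% of the other short genes, 11.1% of snRNA genes, 8.63% of miRNA genes, 7.15% of snoRNA genes and 1.64% of rRNA genes. It was 12.5% at coding gene ends and 17.1% at coding gene starts. Sets of long genes, whose windows span the whole gene, were higher in replicate 2, at 41.4% of 12408 lncRNA genes (median length 8394 bp) and 40.2% of all 47042 genes (6277 bp). In replicate 1 these sets stood at 8.24% and 11.5%, and for shared summits at 7.7% and 10.7%, below the tRNA windows. The replicate 2 list was 8.97 times as long as that of replicate 1, and it reached 1.48 times as many tRNA windows. Growth below that of the list was also seen at coding gene starts, from 1811 to 3425 windows, and at other short genes, from 51 to 196. Both lists missed 260 windows, 47 held only replicate 2 summits, 7 held only a replicate 1 summit within the window, and 3 held summits of both lists with none paired. In 1 window of the 7, that of n-TTtgt1, the replicate 1 summit was paired with a replicate 2 summit just outside the window.

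**Figure D1:**
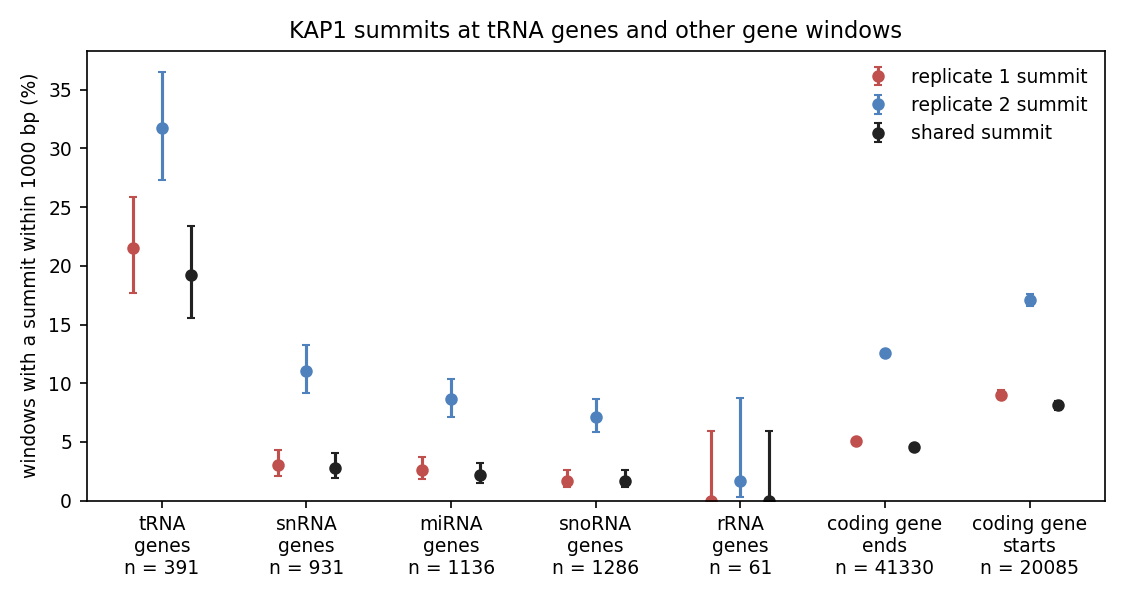
Percent of windows with a KAP1 summit within 1000 bp (vertical axis) for tRNA genes and 6 other sets of gene windows, for replicate 1, replicate 2 and shared summits; bars are Wilson 95% intervals, too narrow to see at some coding gene points. The tRNA points, at 21.5%, 31.7% and 19.2%, lie above the matching points of every other set plotted.

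The windows of neighbouring tRNA genes overlap, and 213 of the 391 shared part of their window with another. Merging them left 256 loci, of which 178 held 1 tRNA gene and the fullest held 6. With each locus counted once, 47 of 256 had a shared summit (18.4%, 14.1 to 23.6%), 53 a replicate 1 summit and 85 a replicate 2 summit. The loci covered 0.0261% of the extent of chromosomes 1 to 19 and held 0.729% of the replicate 1 summits (64 of 8778). They held 0.123% of the replicate 2 summits (97 of 78980). That was 99.8 replicate 1 summits per Mb in the loci, against 3.57 per Mb over the chromosomes, and 151.3 replicate 2 summits per Mb in the loci, against 32.1 per Mb over the chromosomes. The chromosome extents include stretches of unknown bases.

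Summit density was highest within 100 bp of the tRNA genes for replicate 1 and shared summits, where a shared summit has its replicate 1 position. The 52 shared summits in the loci lay a median of 169 bp from the nearest tRNA gene, with quartiles of 36.2 and 383.2 bp, and 43 lay within 500 bp. By that position 2 lay inside a tRNA gene, n-TStga3 and n-TKctt11. By the replicate 2 position of the same 52 pairs, 4 did, with n-TLaag4 and n-TIaat17 added, 16 lay at 1 to 100 bp and the median distance was 153 bp. At 1 to 100 bp from the genes there were 18 shared summits, or 231.1 per Mb, which was 74.4 times the value over chromosomes 1 to 19. Inside the genes the density was 68.5 per Mb, a ratio of 22.1 that rests on 2 summits. By the replicate 2 position the pairs stood at 137.0 per Mb inside the genes and 205.4 per Mb at 1 to 100 bp. For shared summits at their replicate 1 position, the ratio was 38.8 at 101 to 250 bp and 20.8 at 251 to 500 bp. It was 10.7 at 501 to 1000 bp and 5.47 beyond that up to 2000 bp. From 2001 to 20000 bp it lay between 2.61 and 3.49. Replicate 2 showed no dip inside the genes, with 8 summits there and a ratio of 8.54, against 8.40 at 1 to 100 bp. Its ratio was 2.87 at 501 to 1000 bp and 1.56 at 2001 to 5000 bp. The gene table gives no strand, so upstream and downstream flanks were not separated.

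**Figure D2:**
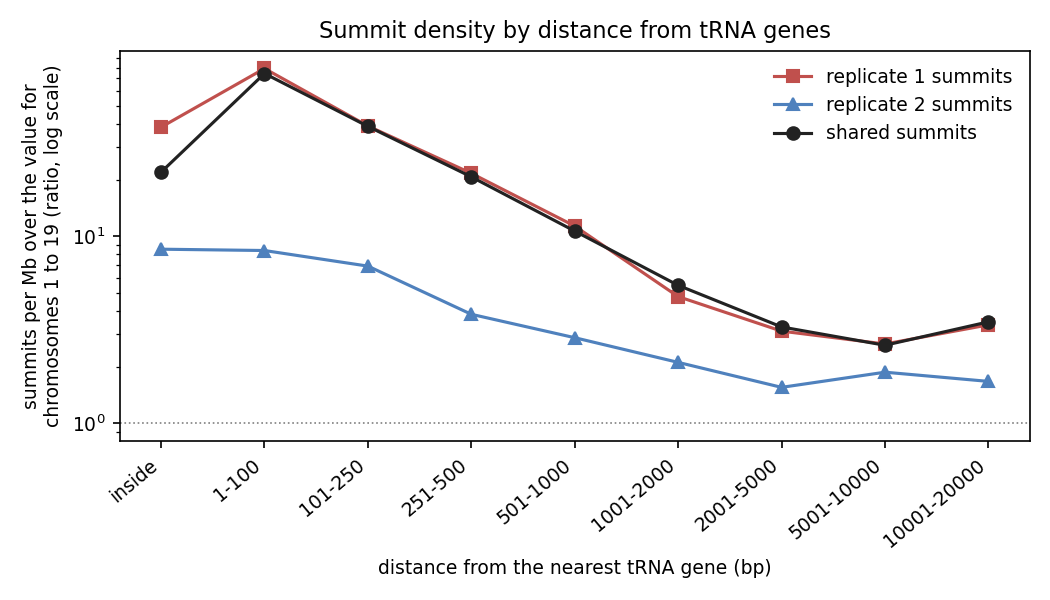
Summits per Mb divided by the value over chromosomes 1 to 19 (vertical axis, log scale) against distance from the nearest tRNA gene in bp (horizontal axis, bins of unequal width), for replicate 1, replicate 2 and shared summits; the dotted line is a ratio of 1. Shared and replicate 1 summits peak at 1 to 100 bp, at 74.4 and 79.2, while replicate 2 stays between 8.40 and 8.54 from inside the gene to 100 bp.

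Summits at tRNA genes had median scores above the middle of each list, but in replicate 1 the interval of the median spans the middle. The 64 replicate 1 summits in the loci had a median score of 8.53 (range 1.48 to 42.1). Their median percentile within the list was 60.5 (95% interval 40.5 to 76.0). The 97 replicate 2 summits had a median of 10.99 (range 4.0 to 49.3), at a median percentile of 71.7 (61.0 to 86.6). With all shared summits of chromosomes 1 to 19 ranked by mean percentile, none of the first 100 lay in a tRNA locus, 3 of the first 500 did (0.6%), and 9 of the first 1000 did (0.9%). Of all 7641 shared summits, 52 did (0.681%), so these shares were close to the background. The shared summits at tRNA loci had median percentiles of 71.8 in replicate 1 and 89.97 in replicate 2, against 58.3 and 80.99 for shared summits elsewhere. Pairs at tRNA loci were tight, with a median distance of 5.5 bp and a largest one of 99 bp. The median was 6 bp for shared summits elsewhere.

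Replicate 2 summits in tRNA loci were often paired. Of 97, 52 had a replicate 1 partner (53.6%, 43.7 to 63.2%), against 9.62% of 78883 replicate 2 summits elsewhere on chromosomes 1 to 19. Away from tRNA loci but within 1000 bp of a coding gene end, 34.7% of 4918 were paired. The share at tRNA loci stood above that elsewhere in each range of replicate 2 scores. Among the 10% with the highest scores, 26 of 30 in tRNA loci were paired (86.7%), against 37.9% elsewhere and 66.8% at coding gene ends. Among the lower 50%, 10 of 33 were paired (30.3%), against 5.81% elsewhere and 25.3% at coding gene ends. From the other side, 52 of 64 replicate 1 summits in tRNA loci were paired (81.2%, 70.03 to 88.9%), against 87.1% elsewhere. Among the lower 50% of replicate 1 scores, 15 of 26 were paired (57.7%, 38.9 to 74.5%), against 76.4% elsewhere and 77.4% at coding gene ends. In the 3 higher ranges, 13 of 13, 17 of 18 and 7 of 7 were paired, against 96.3%, 99.5% and 100% elsewhere. These shares are from 2 libraries and are a description.

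The tRNA locus with the highest mean percentile was that of n-TStga3, a serine gene with anticodon TGA on chromosome 10. Its summit at position 63429502 lay inside the tRNA gene (63429476 to 63429557), and scored 37.4 in replicate 1 against 48.7 in replicate 2. It lay 596 bp from an end of Ctnna3, a catenin gene. The second was n-TYgta7, a tyrosine gene with anticodon GTA on chromosome 13, whose summit at position 23432675 lay 315 bp from the gene (42.1 and 34.0). This was the highest replicate 1 score of any tRNA locus. The highest replicate 2 score, 49.3, belonged to n-TVcac6, a valine gene on chromosome 1. Its summit at position 171112287 lay 772 bp from the tRNA gene, with a replicate 1 score of 30.8.

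Strong summits were spread over isotypes and chromosomes. On chromosome 1, a single summit at position 171102354 (26.8 and 38.8) lay 17 bp from the aspartate gene n-TDgtc5, in a locus that also holds n-TLcag9, n-TGtcc3 and n-TEctc6. The 4 windows therefore rest on 1 summit. The valine gene n-TVaac3 on chromosome 13 had one 254 bp away (24.4 and 30.7), and the leucine genes n-TLcag5 and n-TLcag4 on chromosome 8 shared one 185 bp from n-TLcag4 (22.2 and 39.6). The alanine gene n-TAagc8 on chromosome 4 had one 256 bp away (21.2 and 34.7). The histidine gene n-THgtg4 on chromosome 2 had one 12 bp away (21.1 and 25.4). All 5 of these summits lay more than 5000 bp from a coding gene end.

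The lysine gene n-TKctt18 on chromosome 9 had 2 shared summits, the stronger one 133 bp from the gene (20.6 and 42.1). Another lysine gene, n-TKctt17 on chromosome 12, lay 91 bp from an end of Psma3, which encodes a proteasome subunit. Its summit lay 54 bp from the tRNA gene and 37 bp from the Psma3 end (19.8 and 23.9). The glutamate gene n-TEttc7 on chromosome 7 was the most isolated member with a shared summit, 256756 bp from the nearest coding gene end, that of Atp10a. Its summits fell on the same base in both lists, position 58399284, 31 bp from the tRNA gene (18.4 and 23.6).

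The other loci among the leading 15 were on chromosomes 11, 13 and 14. On chromosome 14, the summit of a locus with n-TTtgt1, n-TYgta10 and n-TPtgg5 lay 133 bp from n-TYgta10 (19.8 and 19.6), and that of n-TEttc4 lay 740 bp from its gene (16.7 and 31.4). The summit of n-TYgta8 on chromosome 13 lay 74 bp from the gene (12.4 and 40.2). That of the asparagine gene n-TNgtt8 on chromosome 11 lay 15 bp from the gene (12.0 and 40.2). n-TNgtt8 itself lies 15 bp from an end of Pcgf2, a Polycomb gene.

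Just inside the 1000 bp limit were n-TRacg6 at 996 bp from a shared summit, n-TTtgt1 at 989 bp and n-TPtgg5 at 936 bp. Just outside it were n-TCgca51 at 1023 bp, n-TYgta1 at 1097 bp and n-TLtaa4 at 1113 bp.

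By isotype, cysteine and phenylalanine tRNA genes had no shared summit. The 391 genes carry 20 isotypes and 48 anticodons, and 18 isotypes had at least 1 window with a shared summit. The table names no selenocysteine gene on these chromosomes and does not separate initiator from elongator methionine genes. None of 57 cysteine genes had a shared or replicate 1 summit, and 3 had a replicate 2 summit. All 57 have anticodon GCA. The other isotype without a shared summit was phenylalanine, with only 7 genes, of which 1 had a replicate 1 summit. Without the cysteine genes, 75 of 334 windows had a shared summit (22.5%).

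Per window, the largest shares were those of tyrosine, arginine and leucine genes. Tyrosine genes had a shared summit in 4 of 10 windows (40%, 16.8 to 68.7%), over 4 separate loci. Arginine genes had one in 9 of 23 (39.1%, 22.2 to 59.2%), over 7 loci, and leucine genes in 9 of 26 (34.6%, 19.4 to 53.8%), also over 7 loci. Per locus, the shares were 66.7% for tyrosine, 35% for arginine, 30.8% for proline, 30% for alanine and 29.2% for leucine. The intervals are wide at these gene numbers. Alanine had 6 of 21, serine 6 of 22, glutamate 5 of 20, lysine 5 of 25 and valine 5 of 23. Aspartate, methionine and proline had 4 of 16 each. Glycine, the second most frequent isotype, had 3 of 28 (10.7%), and asparagine had 1 of 13. Genes of different isotypes share summits where they adjoin.

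Counts varied among the anticodons of an isotype, on small numbers of genes. Among arginine genes, all 4 with anticodon CCT had a shared summit, against 0 of 3 with CCG and 1 of 6 with ACG. The CCT genes n-TRcct5 and n-TRcct3 share 1 summit beside Mrpl58, so the 4 windows rest on 3 summits. Among threonine genes, 2 of 5 with anticodon TGT had a shared summit, against 0 of 9 with AGT. Both valine genes with TAC had one, n-TVtac1 and n-TVtac2, which share a single summit on chromosome 19. Of 12 valine genes with CAC, 1 did.

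**Figure D3:**
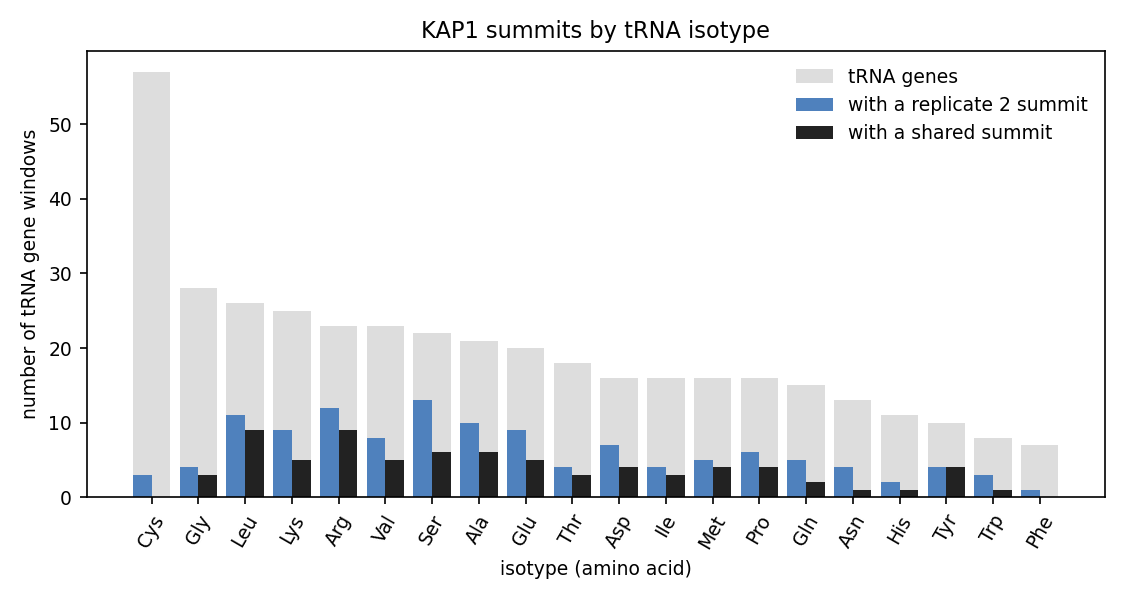
Number of tRNA gene windows (vertical axis) by isotype, ordered by gene number, with all members in grey, windows with a replicate 2 summit in blue and windows with a shared summit in black. Cysteine has the most genes, 57, with 3 replicate 2 windows and 0 shared ones; arginine and leucine have the most shared windows, 9 each.

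Genes no more than 10000 bp apart were taken as 1 cluster, which gave 163 clusters, of which 43 held a shared summit. Single genes and small clusters had like shares. A shared summit was present at 21 of 101 single genes (20.8%), at 23 of 101 genes in clusters of 2 to 4 (22.8%) and at 26 of 103 in clusters of 5 to 9 (25.2%). In the 6 clusters of 10 or more genes it was present at 5 of 86 (5.81%, 2.51 to 12.9%). These clusters include those of 22 and 10 cysteine genes on chromosome 6, which held no summit. A share without cysteine genes was not computed for clusters. The share in the largest clusters also depended on the gap. In clusters of 10 or more genes it was 13.2% (5.75 to 27.3%) of 38 genes with gaps of up to 5000 bp and 14.4% (10.3 to 19.8%) of 208 genes with gaps of up to 50000 bp.

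The 5 clusters with most genes differed among themselves. The largest, 22 cysteine genes over 73271 bp of chromosome 6, held no summit of either list. The cluster of 15 genes of 4 isotypes over 17783 bp of chromosome 1 held none either. On chromosome 13, the cluster of 15 genes from position 21907111 held 6 replicate 2 summits and 1 replicate 1 summit in its windows, with no pair within 200 bp. Its replicate 1 summit at position 21940874 (score 16.3) lay 228 bp from the nearest replicate 2 summit (33.9), between n-TDgtc12 and n-TSaga8, and so just missed the pairing distance. The cluster of 14 genes from position 23425646 of chromosome 13 was the only one of the 5 with shared summits, at 5 of 14 genes. These 5 windows rest on 3 summits and are those of n-TYgta7, n-TKctt11, n-TPagg3, n-TIaat8 and n-TAcgc10. The fifth, a cysteine cluster of 10 genes on chromosome 6, held no summit. A cluster on chromosome 13 from position 21234045 also has 10 genes and held 2 replicate 2 summits and none of replicate 1.

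When gaps of up to 50000 bp were allowed, 7 regions held 10 or more tRNA genes. The chromosome 6 region joined 48 genes, all cysteine, over 229.7 kb. It held 0 replicate 1 summits and 1 replicate 2 summit, or 4.35 per Mb, against 32.1 per Mb over chromosomes 1 to 19. The 9 cysteine genes elsewhere included all 3 with a replicate 2 summit, n-TCgca53, n-TCgca54 and n-TCgca55 (33.3%, 12.1 to 64.6%), against 31.7% of all tRNA windows. n-TCgca54 and n-TCgca55 share 1 summit, with a score of 4.61 at percentile 3.16 of the replicate 2 list. That of n-TCgca53 scored 6.50, at percentile 21.4. The median percentile of replicate 2 summits in tRNA loci was 71.7. None of the 9 had a replicate 1 or shared summit (0 to 29.9%), so at this number the shared share outside the region is poorly bounded. How far reads could be placed in these repeated copies was not tested. The region of chromosome 3 (25 genes, 179.4 kb) held 10 replicate 2 summits and 0 of replicate 1. The region of chromosome 11 held 18 genes of 11 isotypes over 88.2 kb, near Aurkb, Per1 and Hes7. It had the largest share per window, with a shared summit at 7 genes (38.9%). Of these windows, 4 rest on 2 summits in 1 locus and 3 on 1 summit in another. Shares per locus were not compared among the regions. The 3 regions of chromosome 13 had shared summits at 4 of 24, 4 of 32 and 10 of 36 genes. The coding genes nearest to their tRNA genes include Trim27 in the first, Zfp184 and the histone gene H2bc11 in the second, and Abt1 and the butyrophilin gene Btn1a1 in the third. That of chromosome 1 had them at 5 of 25.

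**Figure D4:**
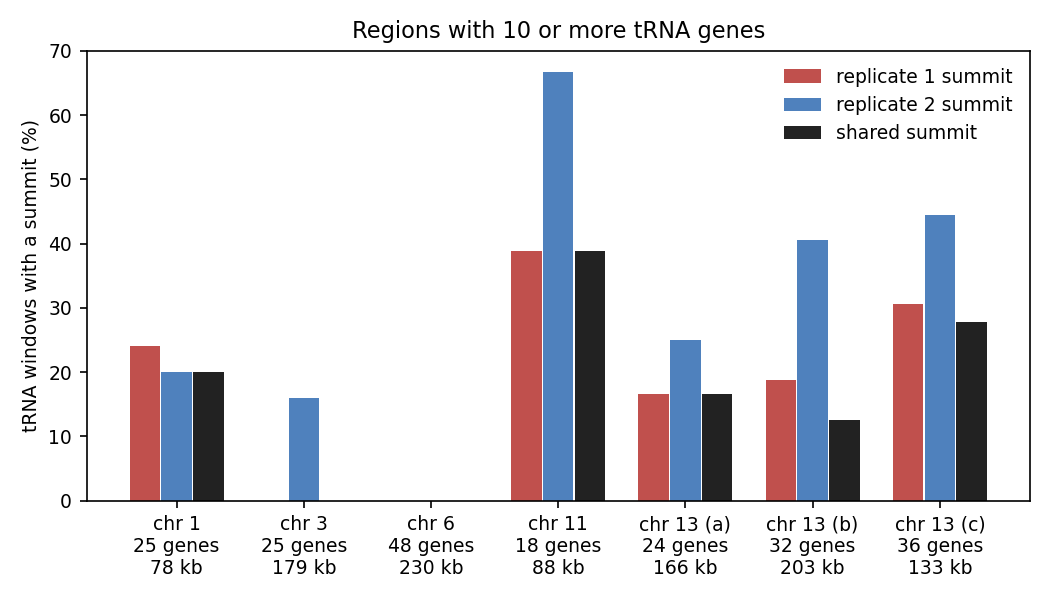
Percent of tRNA windows with a replicate 1, replicate 2 or shared summit (vertical axis) in the 7 regions with 10 or more tRNA genes no more than 50000 bp apart, labelled by chromosome, gene number and length. Chromosome 11 has the largest shared value per window, 38.9%, and the chromosome 6 region, with 48 cysteine genes, has none of any kind. Neighbouring windows share summits.

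Closeness to a protein-coding gene went with more shared summits, and for shared summits the contrast with other short genes was present out to 20000 bp. Of tRNA genes within 1000 bp of a coding gene end, 18 of 47 had a shared summit (38.3%, 25.8 to 52.6%), against 8.42% of 202 other short genes at that distance. At that distance it was also 6 of 32 snRNA genes (18.75%, 8.89 to 35.3%), an interval that overlaps that of the tRNA genes. For miRNA genes it was 7.64% of 144, and for snoRNA genes 7.59% of 79. Farther away and up to 5000 bp a shared summit was present at 16 of 59 tRNA genes (27.1%, 17.4 to 39.6%), against 3.61% of 415 other short genes. Beyond 5000 and up to 20000 bp it was 40 of 156 tRNA genes (25.6%, 19.4 to 33.0%), against 0.871% of 574 other short genes. Beyond 20000 bp it was 1 of 129 tRNA genes (0.775%, 0.137 to 4.26%), namely n-TEttc7, against 0.753% of 1195 other short genes. Cysteine genes made up 50 of those 129. Without them it was 1 of 79 (1.27%), with a replicate 2 summit at 12. Over all 129 a replicate 2 summit was present at 13 (10.1%, 5.98 to 16.5%), against 4.94% of the 1195 other short genes.

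Counted by locus, the shares were 15 of 37 within 1000 bp, 10 of 41, 24 of 93 and 1 of 95 in the same order, where a locus counts in each class its genes fall in. Of the 33 tRNA genes inside a coding gene, 5 had a shared summit (15.2%), against 19.6% of the 358 outside one. With ends of every kind of annotated gene except tRNA genes considered, 296 tRNA genes had no such end within 1000 bp. Of these, 48 still had a shared summit (16.2%, 12.5 to 20.8%). Other tRNA genes could lie within that distance. With none within 5000 bp it was 21 of 174 (12.1%).

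**Figure D5:**
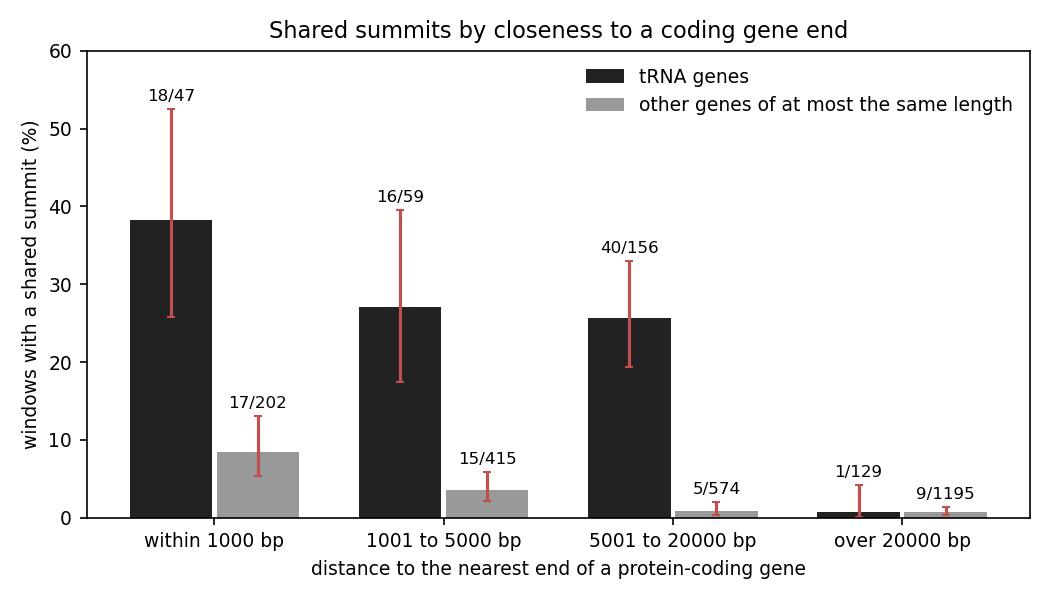
Percent of windows with a shared summit (vertical axis) by distance to the nearest protein-coding gene end, for tRNA genes (black) and other genes of at most the same length (grey), with Wilson 95% intervals in red and counts above the bars. The tRNA bars stand at 38.3%, 27.1% and 25.6% up to 20000 bp and at 0.775% beyond.

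Of the 52 shared summits at tRNA loci, 41 had no coding gene end within 1000 bp (78.8%), close to the 77.5% of 7589 shared summits elsewhere. In 30 of the 52 there was none within 5000 bp. Of the 11 with such an end within 1000 bp, 8 lay nearer to the tRNA gene and 3 nearer to the coding gene end. Those 3 were by Psma3, Fmc1 and 2610301B20Rik. Among the 8 were the summits at n-TNgtt8 (15 bp from the tRNA gene and 103 bp from Pcgf2), n-TMcat11 on chromosome 3 (54 bp, and 395 bp from Ilf2) and n-TRcct5 on chromosome 11 (30 bp, and 277 bp from Mrpl58, a mitochondrial ribosomal protein gene).

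The genes that make and use tRNAs were described from 4 lists, with a shared summit within 1000 bp of an end in 8.94% of the 20665 coding genes of chromosomes 1 to 19 as background. For replicate 1 alone the background was 9.84%, and for replicate 2 alone 23.2%. RNA polymerase III and its general factors had a shared summit in 10 of 27 genes, with a replicate 1 summit in 10 and a replicate 2 summit in 13. These included Snapc1, of the complex that recognises small nuclear RNA promoters (scores 22.5 and 27.3, 112 bp outside the gene). They also included Gtf3c3, a TFIIIC subunit gene (11.3 and 37.4, at 49 bp), Bdp1, a TFIIIB subunit gene (7.27 and 27.0, at 67 bp), and Tbp, the TATA-binding protein gene (8.34 and 9.28, at 98 bp). The subunit genes Polr3a, Polr3b, Polr3e and Polr3g were also among the 10, with Brf2 and Snapc5.

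Aminoacyl-tRNA synthetase genes, whose products load amino acids onto tRNAs, had a shared summit in 7 of 37 cases. The strongest was at Yars, the tyrosyl enzyme gene (32.8 and 41.0, 20 bp inside the gene), followed by Fars2 (31.0 and 38.2), Cars2 (15.9 and 14.5) and Tars (11.02 and 13.6). Genes of tRNA processing and export had one in 6 of 37 cases, led by Ssb, which encodes the La protein that binds new RNA polymerase III transcripts (23.4 and 23.2), with Pop4 (8.09 and 33.1) and Tsen54 (6.16 and 9.26). Another gene of that list is not on chromosomes 1 to 19. Of 60 genes of other RNA polymerase III transcripts, 3 had one within 1000 bp (5%), for which the 1.93% of other short genes is the nearer background. These were Bc1, a brain cytoplasmic RNA gene (18.1 and 27.4, at 8 bp), Rny3, a Y RNA gene (6.16 and 8.87, at 685 bp), and Rmrp, the RNase MRP RNA gene (5.10 and 7.08, inside the gene). The 5S genes make up most of that list and had no shared summit.

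Some members carried a summit in only 1 list. The strongest replicate 2 summit without a replicate 1 summit in the window lay by n-TTagt5 and n-TScga3 on chromosome 11 (score 27.7, position 69110902), whose nearest coding gene is Per1. It was followed by that of n-TEttc6 on chromosome 14 (24.3) and of n-TQctg1 on chromosome 13 (20.2). Of the 9 windows with a replicate 1 summit and no shared one, 7 had scores of 6.16 or lower, and the other two, n-TDgtc12 and n-TSaga8, share the summit described above.

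The 5 members named Trnat-ugu, Trnap-ugg, Trnav-aac, Trnal-aag and Trnav-cac have chromosome 11 coordinates below position 3000210, the lowest summit position of either list on chromosomes 1 to 19. No summit could be assigned to them, and without them 75 of 386 windows had a shared summit (19.4%).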

How the data were processed

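KAP1 ChIP-seq and input libraries were made from regulatory T cells, with fragments of 150 to 400 bp selected, per the labels' protocols. The submitters' processing notes name Bowtie2 2.2.9, Picard 2.1.1, MACS2 2.2.1 and mm10. Peak-calling settings, the control used and filters are not stated in those notes as used here. The authors deposited 1 summit list per KAP1 sample, not pooled, with a −log10 score per summit, of either its p-value or its q-value. Depth is unknown.

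From these lists, summits were paired across replicates within 200 bp (1-based positions), counted in gene windows, and merged over overlapping windows, with Python 3.11.15, numpy 2.4.6, pandas 2.3.3 and scipy 1.17.1. The counting was tested on simulated data. Isotype and anticodon were read from gene names, and all 391 anticodons code for the named amino acid. Coding gene ends are the lowest and highest coordinates of a gene. Coding gene starts, added after the data were seen, came from the RefSeq promoter table. Shares have Wilson 95% intervals, and median percentiles have 95% intervals from their ranked values.

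With 2 samples of 1 group and members and lists chosen with earlier results of these data known, no test was made. Named loci are the leading 15 by mean percentile of the paired scores, the 5 largest clusters, the 3 members on either side of the 1000 bp limit, and up to 4 genes of each other list, of which 1 is not reported here. Other genes were named after their values were seen. Alternatives were flanks of 500 and 2500 bp, pairing within 50 and 500 bp, scores at or above the list median, a reduced replicate 2, each replicate alone, cluster gaps of 5000 and 50000 bp and coding distances of 500 and 2500 bp. Omitting cysteine genes or the members below the lowest summit was added after the data were seen.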

Additional observations from a re-analysis of the deposited data

How the results depend on the processing

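Of 86 recomputed values, 65 stayed within their interval or within 1.5 times the count, and 21 moved. With as many top replicate 2 summits as replicate 1 has, shared summits were found in 39 windows (9.97%), 26 loci and 24 clusters, at 19.1% of genes close to a coding gene end and 8.72% of those farther away, against 38.3% and 16.6% with the full list. Leaving out 1 replicate gave 84 to 124 windows (21.5 to 31.7%), 53 to 85 loci, 48 to 73 clusters, 40.4 to 48.9% close to and 18.9 to 29.4% away from a coding gene end, and density ratios of 4.71 to 28.0. Flanks of 500 bp gave 13.3% of windows, 23.4% close to and 11.9% away from a coding gene end and a density ratio of 37.5. Flanks of 2500 bp gave 25.3% of windows, 22.7% away from a coding gene end and a ratio of 14.9. Scores at or above the medians gave 14.3% of windows and 12.5% away from a coding gene end. Windows that change in width or lists that change in length alter these values by construction. In each of these settings the tRNA share stood above that of other short genes, from 3.86 times with replicate 2 alone to 13.7 times with scores at or above the medians. Read depth is unknown and limits how far a window without a summit can be read. No paired analysis was possible because the input samples have no list and no test was made.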

Other observations

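The 17 nuclear tRNA genes on chromosome X had no summit of either replicate within 1000 bp. Few summits of any kind lay outside chromosomes 1 to 19, which held 8778 of 8862 in replicate 1 and 78980 of 79515 in replicate 2. The share for other genes of chromosome X was not computed, so this count has no background and is not a trait of the tRNA genes.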
